A study of Mus musculus with 30 samples.

Results

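Gene expression in the whole eye was compared with that in a block of hypothalamic tissue, using only the wild-type (WT) mice of the study, 7 eye and 8 hypothalamus arrays of 30 arrays in all. The mice were adult males, littermate controls of mice lacking the clock gene Per3 (Per3-/-), on a C57Bl/6J background. All animals, of both genotypes, had lived in a standard light/dark cycle and then on an ultradian schedule of 3.5 h light and 3.5 h dark, and were killed in the light phase of the 17th such cycle, so both tissues describe 1 time point and 1 lighting history. Each array held RNA of 1 sample, labeled with Cy3, and no samples were pooled. The hypothalamic block was a piece of ventral brain cut around the optic chiasm, and the eye was taken whole, with lens, retina, cornea and whatever tissue stayed attached. The 7 Per3-/- eye and 8 Per3-/- hypothalamus arrays were used only as a second set of mice for the same tissue comparison. In those mice a PGK-NEO cassette replaces an exon of Per3 in every cell.

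The eye gathers light through the cornea and lens, whose cells are filled with keratins and crystallins, and turns it into nerve signals in the rods and cones of the retina. A pigmented epithelium behind the retina recycles the visual chromophore, and extraocular muscles and fat surround the globe. The hypothalamus holds neurosecretory cells that make the pituitary hormones vasopressin and oxytocin, neurons that use peptides to set feeding, arousal and reproduction, and the suprachiasmatic nucleus (SCN), the central circadian clock that receives light from the retina through the optic nerve. In both tissues the clock itself is a transcriptional loop in which CLOCK and ARNTL drive the period and cryptochrome genes, whose products repress them.

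Values are the log2 of the background-subtracted signal of a probe relative to the 75th percentile of its own array, called log2 signal here, so 0 is the signal that 75 percent of probes lie below. A difference is the mean over the eye arrays minus the mean over the hypothalamus arrays, and positive differences are higher in the eye. Each tissue was hybridized on its own slides and scanned separately, so tissue and hybridization cannot be told apart, and a probe was called only when it differed at least 4-fold with an adjusted p under 0.05 in limma. Probes that were well above background on no array of a tissue have only a bound there. Their fold is given as "at least", from the mean of the bright tissue over the lowest signal that counted as well above background on each array of the other. Because these are bulk samples, fewer cells of a type and less RNA per cell cannot be told apart, and levels are compared only for the same probe. Each array of a tissue is a different mouse, so the ranges and errors below are between mice.

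The tissue labels were first checked against marker genes, and the markers separated the tissues on every array. Cryaa, which encodes the lens chaperone αA-crystallin (probe at chr17:31818589-31818648, assembly mm9), had log2 signals of 8.42 to 8.79 (median 8.68) in the eye and -4.73 to -4.21 (median -4.50) in the hypothalamus. This is a difference of 13.13 ± 0.087 (SE), and it is a minimum because the probe was at the ceiling of the scanner on 6 of the 7 eye arrays. Krt12, the keratin of the corneal epithelium, lay at 7.84 to 8.22 (median 7.91) in the eye and -2.66 to -1.80 (median -2.39) in the hypothalamus, a 1258-fold difference (adjusted p = 7.18e-19, limma). Neither marker overlapped between the tissues. Avp, the vasopressin gene (probe at chr2:130406552-130406817, mm9), ran the other way, at -6.64 to -4.56 (median -5.50) in the eye, where 6 of 7 arrays were above background, and 4.47 to 4.75 (median 4.62) in the hypothalamus. Oxt, which encodes oxytocin and is its neighbor on chromosome 2, had -3.47 to -2.54 (median -3.19) in the eye and 4.60 to 4.94 (median 4.84) in the hypothalamus, a difference of -7.83 ± 0.13. For Hcrt, the orexin precursor of the lateral hypothalamus, the values were -3.63 to -2.55 (median -2.98) and 5.74 to 6.05 (median 5.93), and the difference of -8.98 was 504-fold (adjusted p = 6.82e-17, limma). All 15 arrays therefore carried the markers of the tissue they are labeled with.

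**Figure D1:**
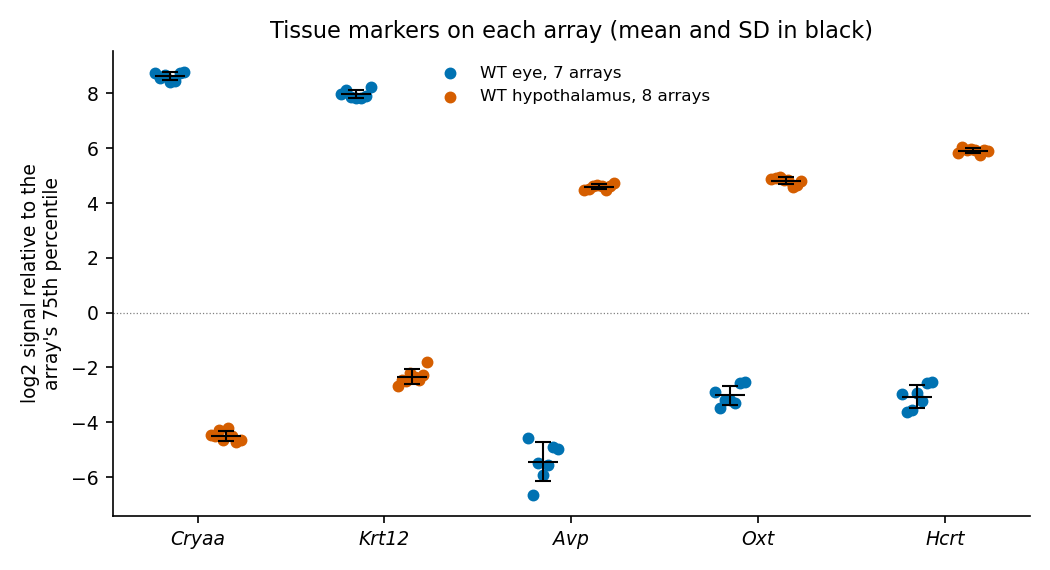
Log2 signal relative to the 75th percentile of the array for 5 tissue markers (vertical axis), with 1 point for each of the 7 WT eye (blue) and 8 WT hypothalamus (orange) arrays and the mean and SD in black. The eye arrays lie above all hypothalamus arrays for Cryaa and Krt12 and below all of them for Avp, Oxt and Hcrt. For Oxt, the narrowest gap among the peptides, the lowest hypothalamus array was at 4.60 and the highest eye array at -2.54.

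Between 72.5% and 80.7% of probes were well above background on the WT eye arrays and between 67.9% and 75.3% on the WT hypothalamus arrays. Some arrays stood apart within a tissue, and results that rest on them are given with and without them. On hypothalamus arrays 2, 5 and 6 the genes of the choroid plexus were high, and on array 5 also 2 pituitary hormone genes. Among eye arrays, 1 and 8 had the highest signals of myelin genes, and array 4 the lowest of fat and most muscle genes. These values are described with the lists they concern.

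Of 41174 probes, 4915 (11.9%) were called higher in the eye and 3270 (7.94%) higher in the hypothalamus. At a fold of 8 in place of 4 the counts were 2288 and 1309. The median probe differed by 0.11, and 55.2% of probes lay within 2-fold. Well above background on every eye array and on no hypothalamus array were 942 probes (2.29%), and the reverse held for 391 (0.95%). Of the probes called, 4594 of 4915 and 3228 of 3270 had ranges that did not overlap between the tissues, against 23116 of all probes (56.1%). Without hypothalamus arrays 2, 5 and 6 the counts were 4964 and 3302, and without eye arrays 1 and 8 they were 4717 and 3272.

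How many probes fell on each side depended on the scaling. The eye took 60% of the calls after scaling to the 75th percentile, 47.9% after quantile normalization (3727 eye, 4057 hypothalamus) and 11.3% when arrays were centered on spiked-in control RNA (1623 and 12689). The last shifts every difference by -1.58, because the spike-in probes were brighter relative to the 75th percentile on eye than on hypothalamus arrays, by 0.88 to 1.98 for 10 spike-ins. Differences of several log2 units are little affected by a shift of that size, whereas the sign of a difference near 0 is not fixed.

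**Figure D2:**
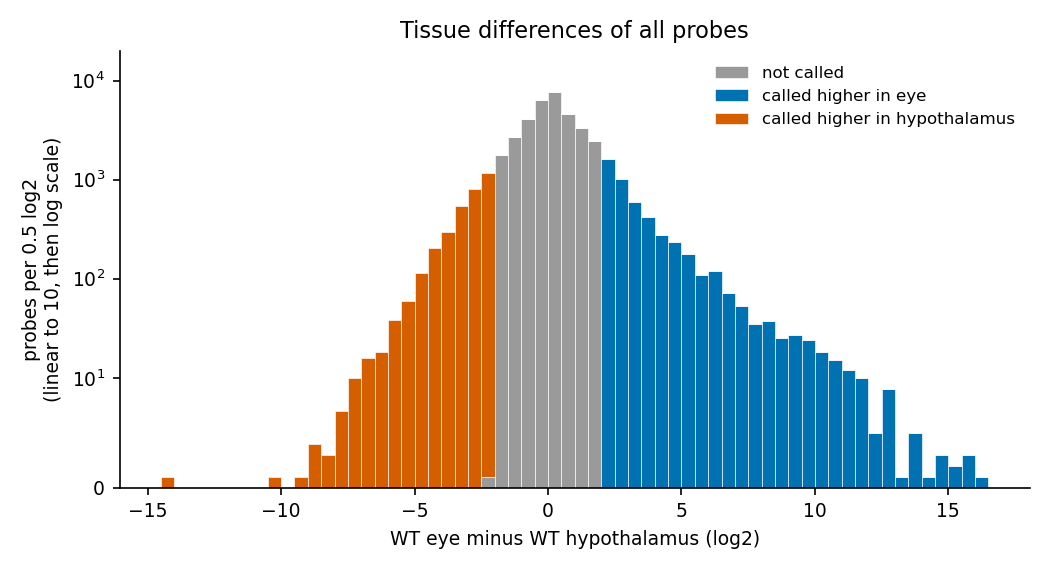
Number of probes (vertical axis, linear to 10 and logarithmic above) by WT eye minus WT hypothalamus difference in bins of 0.5 log2 (horizontal axis), in blue where called higher in the eye (4915), orange where called higher in the hypothalamus (3270) and gray otherwise. Fitted differences reach 16.08 toward the eye (Pdc) and -14.45 toward the hypothalamus (Pmch), and differences beyond 8 log2 units lie mostly on the eye side. Both of these probes were well above background on no array of the dim tissue, so their size is known only as a bound.

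By gene, with each gene represented by its brightest probe, 3762 of 28104 gene names (13.4%) were called higher in the eye and 2078 (7.39%) in the hypothalamus, and 628 (2.23%) were detected in the eye alone and 228 (0.811%) in the hypothalamus alone. The median gene differed by 0.14. Of 341 genes on 27 lists, 335 had a probe, and Crygb, Rom1, Crh, Nms, Pou1f1 and Kcnj13 had none. Against the shares over all genes, 141 of 162 genes on 11 lists of eye cell types were called toward the eye and 1 toward the hypothalamus. Of 92 genes on 7 lists of hypothalamic and brain cell types, 60 were called toward the hypothalamus and 3 toward the eye. The lists were chosen to mark these tissues, so their overall direction is a check of the labels, and the values below show how far each structure was measured and which members departed from the rest. Every called gene of the lists had a limma adjusted p of at most 0.00495, the value of Ttr.

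The lens crystallins had the highest median difference of any list. Crystallins are the soluble proteins that fill lens fiber cells and make them transparent, and all 15 crystallin genes with a probe were called higher in the eye, with a median difference of 12.33. Crygc, measured on every array of both tissues, had log2 signals of 8.30 to 8.87 (median 8.57) in the eye and -5.38 to -4.87 (median -5.0) in the hypothalamus, a 12836-fold difference (SE 0.092 log2). The γ-crystallins Crygd, Crygf and Cryga differed by 12.64, 12.34 and 11.30, and the β-crystallin Cryba4 by 11.91. None of these overlapped between the tissues. Cryba2 was well above background on no hypothalamus array and at 7.71 to 8.25 (median 8.21) in the eye, at least 25037-fold higher, and Cryge was at least 9188-fold higher. The γ-crystallin genes are close copies of each other, so their probes may share signal.

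The smallest crystallin differences were in members with a clear signal in the hypothalamus. Cryab, a small heat shock protein found in many tissues, had 2.96 to 3.90 (median 3.43) in the hypothalamus and 7.28 to 7.71 (median 7.51) in the eye, a difference of 4.01. A second Cryab probe gave -0.70 and was not called. Crybb1 was well above background on all 8 hypothalamus arrays at -1.88 to -1.32 (median -1.52), and differed by 7.94. Crygn differed least, by 3.64, with -3.18 to -2.20 (median -2.55) in the hypothalamus.

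The membrane and cytoskeletal genes of lens fiber cells showed the same direction, with 8 of 9 called and a median of 9.59. Mip, the water channel of the fiber membrane, had 5.07 to 5.83 (median 5.59) in the eye and was above background on no hypothalamus array, at least 4171-fold higher. Lgsn, or lengsin, was at least 11757-fold higher and the fiber protein Lim2 at least 307-fold. The beaded filament gene Bfsp1 was measured in both tissues, at 6.71 to 7.22 (median 6.92) and -4.43 to -4.12 (median -4.32), and differed by 11.23. Birc7, an inhibitor of apoptosis, differed by 1.93 and missed the 4-fold threshold.

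Crystallin genes are driven in the lens by MAF-family factors, which bind sites containing the half-site TGCTGA. Windows from 250 bases before to 50 after the start site were taken from RefSeq (build GRCm38.p6) for 14 of the 15 crystallin genes with a probe, and 10 of them (71.4%) held the half-site on either strand, against 21.7% of all 27025 genes with a window. The window of Cryaa (chr17:31677681-31677980, plus strand) holds it once, at -108 from the start, and that of Cryba4 (chr5:112252469-112252768, minus strand) at -182, -135 and -77. They are shown because these 2 genes are among the largest eye differences measured in both tissues, with the half-site in capitals and the strand of the gene read 5′ to 3′.
Cryaa: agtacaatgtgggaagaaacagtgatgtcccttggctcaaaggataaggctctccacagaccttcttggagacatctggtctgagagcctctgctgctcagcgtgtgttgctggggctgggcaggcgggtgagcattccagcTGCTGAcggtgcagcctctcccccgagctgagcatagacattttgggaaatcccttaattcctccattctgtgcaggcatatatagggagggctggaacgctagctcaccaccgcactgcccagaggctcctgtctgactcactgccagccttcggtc
Cryba4: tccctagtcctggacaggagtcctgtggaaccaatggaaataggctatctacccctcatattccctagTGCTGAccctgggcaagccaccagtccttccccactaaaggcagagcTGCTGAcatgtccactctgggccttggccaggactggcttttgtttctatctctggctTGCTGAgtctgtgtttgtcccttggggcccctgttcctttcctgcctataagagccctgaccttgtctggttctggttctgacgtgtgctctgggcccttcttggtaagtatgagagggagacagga
The match is a count of letters in a window, and binding was not measured. Among the 3762 genes called higher in the eye, 23.2% of those with a window held the half-site, and among those called higher in the hypothalamus 21.5%. On other lists it was held by 2 of 5 neurosecretory genes with a window (40%), 5 of 13 inner retinal (38.5%) and 3 of 9 visual cycle genes (33.3%). The share was 28% for photoreceptor, 28.6% for muscle, 17.6% for feeding and 15.8% for clock genes.

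Rod and cone genes had the next highest median. Photoreceptors detect light with opsins, pass the signal through a G protein (transducin) to a phosphodiesterase, and close a cyclic nucleotide-gated channel. Of 37 genes with a probe, 35 were called higher in the eye and 15 were detected there alone, with a median difference of 9.96. The short-wavelength cone opsin Opn1sw was at -2.16 to -1.75 (median -1.88) in the eye and above background on no hypothalamus array, at least 24.4-fold higher. Gnat1, the rod transducin α subunit, lay at 7.0 to 7.35 (median 7.12) and -6.14 to -5.62 (median -5.82), a difference of 12.99 ± 0.083.

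The other steps of the cascade followed. Gngt1, the rod transducin γ subunit, was at least 10229-fold higher and Cnga1, the rod channel, at least 4367-fold. Pdc, or phosducin, which binds the transducin βγ subunits, was at least 18861-fold higher, and Aipl1, a chaperone of the rod phosphodiesterase, at least 2448-fold. Prph2, a structural protein of the disc rim, lay at 7.32 to 7.91 (median 7.73) in the eye, and 2 of 8 hypothalamus arrays measured it. The transcription factors Crx and Nr2e3 were well above background on no hypothalamus array, with bounds of 648-fold and 1981-fold, and Nrl, the rod fate factor, differed by 10.50.

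There were 2 exceptions. Rgs9, which speeds the shutoff of transducin in photoreceptors and is also expressed in the brain, was higher in the hypothalamus, at -2.47 to -2.01 (median -2.26) in the eye and -0.24 to 0.25 (median -0.061) in the hypothalamus, a difference of -2.25 (adjusted p = 6.65e-13, limma). Gngt2, the cone γ subunit, was measured on 6 of 7 eye arrays and on no hypothalamus array and was not called, with a fitted difference of 1.28. The 36 genes of the list measured on every eye array had a median SD of 0.176 there, against 0.180 over all probes measured on every eye array.

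CRX binds cores with the letters TAATCC. Of 25 photoreceptor genes with a window in RefSeq, 12 (48%) held this core on either strand within 250 bases before to 50 after the start. The share was 8.14% over all 27025 genes, 7.14% for crystallin genes with a window and 10.5% for genes called higher in the eye. Visual cycle genes had it in 3 of 9 windows (33.3%) and inner retinal genes in 2 of 13 (15.4%). The share was 4.76% for muscle genes, and no neurosecretory, feeding or clock gene with a window held it. The windows of Gngt1 (chr6:3993758-3994057, plus strand), Rbp3 (chr14:33953753-33954052, plus strand), the retinoid carrier of the space behind the retina, and Crx itself (chr7:15879906-15880205, minus strand) are printed because each of these genes was above background on at most 2 of 8 hypothalamus arrays. The core lies on the opposite strand in all 3 and so appears as GGATTA in capitals, at -44 from the start in Gngt1, -69 in Rbp3, and -94 and -21 in Crx.
Gngt1: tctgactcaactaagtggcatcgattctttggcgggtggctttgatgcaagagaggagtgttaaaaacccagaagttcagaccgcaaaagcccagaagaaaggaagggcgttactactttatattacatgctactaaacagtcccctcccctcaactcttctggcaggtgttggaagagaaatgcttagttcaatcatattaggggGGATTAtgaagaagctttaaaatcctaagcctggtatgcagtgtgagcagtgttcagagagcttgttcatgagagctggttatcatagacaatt
Rbp3: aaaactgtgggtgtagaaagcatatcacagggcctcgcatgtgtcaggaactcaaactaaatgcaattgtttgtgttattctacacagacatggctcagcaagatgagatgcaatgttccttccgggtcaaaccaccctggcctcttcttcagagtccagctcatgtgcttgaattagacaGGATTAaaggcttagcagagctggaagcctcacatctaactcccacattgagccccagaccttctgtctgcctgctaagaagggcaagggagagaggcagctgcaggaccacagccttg
Crx: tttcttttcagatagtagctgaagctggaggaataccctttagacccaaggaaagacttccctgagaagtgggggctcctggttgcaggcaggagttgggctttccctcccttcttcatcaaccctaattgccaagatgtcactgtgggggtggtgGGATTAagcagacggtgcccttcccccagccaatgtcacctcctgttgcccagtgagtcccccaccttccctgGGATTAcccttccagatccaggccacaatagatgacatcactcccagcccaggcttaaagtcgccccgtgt
In the eye, Rbp3 lay at 3.44 to 4.12 (median 3.89), and 2 of 8 hypothalamus arrays measured it. As with the crystallins, a match is a description of sequence and not a site of binding. The motifs were chosen with the groups known, and the shares are given with no test.

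Neurons of the inner retina were higher in the eye by a median of 3.06, with 12 of 16 genes called and none the other way. Relative to the spike-ins the median was 1.48, with 7 called toward the eye and 2 toward the hypothalamus. Grm6, the glutamate receptor that gives ON bipolar cells their response to light, had -2.05 to -1.31 (median -1.72) in the eye and was above background on no hypothalamus array, at least 28.2-fold higher. Trpm1, the channel it gates, lay at 3.07 to 3.29 (median 3.14) in the eye with 1 of 8 hypothalamus arrays above background, although a second probe for Trpm1 was above background on 1 eye array only and not called. Opn4, or melanopsin, the photopigment of the retinal ganglion cells that signal light to the SCN, had -2.76 to -2.43 (median -2.72) in the eye and -8.28 to -5.92 (median -6.38) in the hypothalamus, where 3 of 8 arrays measured it, and its fitted difference of 4.0 (adjusted p = 3.73e-09, limma) rests in part on values below background. The ganglion cell genes Pou4f1 and Rbpms were called on their brightest probes, at 2.26 and 2.39, and not on a second probe of each, at -0.58 and 1.20. Slc6a9, a glycine transporter of amacrine cells and of brain glia, was not called (-0.44), nor was Onecut1 (-1.58), for which another probe gave 2.33 and was called higher in the eye.

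Genes of the visual cycle and of melanin, made by the pigmented epithelium and the uvea, were higher in the eye in 6 of 9 and 9 of 10 cases (6 and 8 relative to the spike-ins, where 2 visual cycle genes were called higher in the hypothalamus). Rpe65, the isomerase that regenerates the chromophore, lay at 0.77 to 1.39 (median 1.26) in the eye and was above background on no hypothalamus array, at least 203-fold higher. Rgr, an opsin of these cells, was at least 1945-fold higher, and Lrat and Rlbp1, which store and carry retinoids, differed by 8.14 and 5.25. Not all genes of this epithelium followed. Best1, a chloride channel named for an inherited retinal disease, was at -1.94 to -1.53 (median -1.75) in the eye and -0.23 to 0.31 (median 0.011) in the hypothalamus, a difference of -1.75 that missed the 4-fold threshold, while Mertk and Stra6 differed by -0.76 and 0.55.

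Among the melanin genes, Dct and Mlana differed most, by 10.38 and 11.86, and Tyrp1 by 7.36. Tyr, the rate-limiting tyrosinase, was dim in the eye at -4.87 to -4.32 (median -4.63) and above background on no hypothalamus array, at least 3.73-fold higher. Mitf, the factor that controls pigment cells, overlapped between the tissues at -2.48 to -2.06 (median -2.35) in the eye and -2.54 to -2.10 (median -2.45) in the hypothalamus. Another Mitf probe gave 0.62 and was not called either.

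The ocular surface and its stroma were higher in the eye too. Of the surface epithelium, 13 of 14 genes were called, with a median of 8.08, and the keratins Krt5 and Krt15 of its basal layer, at 12.16 and 11.57, were among the largest differences measured in both tissues. Krt5 lay at 7.59 to 8.08 (median 7.81) in the eye and -4.69 to -4.15 (median -4.34) in the hypothalamus. Aldh3a1, a crystallin-like enzyme of the cornea, was at least 954-fold higher. Sfn was the exception, with the brightest probe at -0.34, but 2 other probes gave 6.64 and 5.66 and were called higher in the eye. Of the stroma and sclera, 15 of 16 genes were called, with a median of 3.65 (8 called and a median of 2.06 relative to the spike-ins). Kera, the proteoglycan keratocan of corneal stroma, was at least 885-fold higher, and Lum and Col1a1 differed by 5.96 and 6.05. Prelp was the member not called, at 1.56.

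Tissue around the globe was measured as well. Of 25 skeletal muscle genes, 22 were called higher in the eye, with a median of 6.71. Myl1, a myosin light chain, lay at 6.38 to 7.22 (median 6.91) in the eye and -6.35 to -5.60 (median -5.87) in the hypothalamus, and Tnnc2, the fast troponin C, at 7.40 to 8.51 (median 8.16) and -3.86 to -3.29 (median -3.66). Ckm, the muscle creatine kinase, differed by 10.69, and 1 of 8 hypothalamus arrays measured it. Myh13, a myosin largely restricted to extraocular muscle, was measured on 5 of 7 eye arrays and on no hypothalamus array, at least 1.96-fold higher. The slow-fiber genes Tnnt1 and Tnni1 differed by 0.72 and 1.70 and were not called. All fat cell genes but Lep were called (5 of 6, median 7.11), led by Cfd, or adipsin, at least 1493-fold higher, and Fabp4, at 9.84. Of 5 lacrimal gland genes, 4, namely Prol1, Dcpp1, Dcpp2 and Dcpp3, were above background on no array of either tissue, and Car6, the secreted carbonic anhydrase, was detected in the eye alone, at least 88.4-fold higher.

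Among the 10 largest eye differences measured in both tissues, only Aqp5 was on none of the lists. This water channel of the cornea and glands lay at 6.68 to 7.22 (median 6.85) on eye and -4.86 to -4.28 (median -4.57) on hypothalamus arrays. Of the 10 largest bounds, Calml3, a calmodulin-like gene of stratified epithelium, was the one outside the lists, at least 10936-fold higher. The rest were lens and photoreceptor genes.

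Neurosecretory hormone genes were the counterpart in the hypothalamus, where all 6 with a probe were called, with a median of -6.54. Besides Avp and Oxt, Trh, the releasing hormone of the thyroid axis, lay at -8.63 to -6.07 (median -8.44) in the eye, where 1 of 7 arrays measured it, and 0.48 to 0.82 (median 0.62) in the hypothalamus. Sst, somatostatin, which retinal amacrine cells also make, was measured on every array and differed by -5.25 ± 0.08. Ghrh differed by -3.69. Gnrh1, expressed by a small scattered population of neurons, differed least, by -2.53, and varied across hypothalamus arrays from -2.30 to -0.41.

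The Sst promoter is the classic example of the cyclic AMP response element, the palindrome TGACGTCA. Its RefSeq window (chr16:23890795-23891094, minus strand) holds it at -48 from the start, in capitals, and of the neurosecretory and feeding genes with a window only Cartpt also held one, at -112. Over all genes with a window the share was 2.03%, and 3.31% among those called higher in the hypothalamus.
Sst: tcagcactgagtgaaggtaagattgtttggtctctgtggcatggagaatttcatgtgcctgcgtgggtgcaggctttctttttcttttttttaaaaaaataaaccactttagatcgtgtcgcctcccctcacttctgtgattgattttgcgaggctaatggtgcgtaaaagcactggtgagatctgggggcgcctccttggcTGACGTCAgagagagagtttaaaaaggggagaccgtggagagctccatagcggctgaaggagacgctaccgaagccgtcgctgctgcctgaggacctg
This element was searched because Sst is one of its textbook genes, and CREB binding was not measured.

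Peptides of feeding and arousal were called higher in the hypothalamus for 12 of 19 genes, with a median of -3.20 (17 and -4.78 relative to the spike-ins). Pmch, the precursor of melanin-concentrating hormone (probe at chr10:87555031-87555090, mm9), gave the largest difference of any probe toward the hypothalamus, at 5.55 to 6.0 (median 5.84) there, and was above background on no eye array, so it was at least 4912-fold higher in the hypothalamus. Hcrt, the other peptide of the lateral hypothalamus, was described above. Agrp, which drives feeding from the arcuate nucleus, had -4.27 to -2.98 (median -3.77) in the eye and -0.84 to 0.35 (median -0.35) in the hypothalamus, and Pomc, its antagonist in the same nucleus, differed by -3.42. The Pomc signal spread widely over the Per3-/- hypothalamus arrays, as given below. Npvf, the precursor of RFamide-related peptides, and Ucn3, an urocortin, were detected in the hypothalamus alone, at -3.51 to -2.66 (median -3.03) and -4.07 to -3.60 (median -3.81), and Ucn3 was at least 6.05-fold higher.

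Other peptides of the list were not called. Npy differed by -1.46, Tac1 by -1.19, Cartpt by -1.04 and Pdyn by -0.88, and a second Tac1 probe, near background, gave 0.065. Penk, the enkephalin precursor, had 5.15 to 5.51 (median 5.38) in the eye and 4.36 to 5.04 (median 4.50) in the hypothalamus, a difference of 0.76 on its brightest probe and -0.17 on a second. Hdc, the histamine-synthesizing enzyme of the tuberomammillary nucleus and of mast cells, overlapped between the tissues (-0.32, adjusted p = 0.0601, limma).

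Transcription factors that pattern the hypothalamus were higher there in 11 of 17 cases, with a median of -3.09 (12 and -4.67 relative to the spike-ins). Nkx2-1, which specifies the ventral hypothalamus, had -2.34 to -1.87 (median -2.04) there and was above background on no eye array, at least 21-fold higher. Dlx1, a factor of inhibitory neurons, lay at -0.42 to -0.0095 (median -0.11) in the hypothalamus, and 1 of 7 eye arrays measured it. Foxb1, a marker of the mammillary bodies, differed by -7.15. Sim1, which the paraventricular nucleus requires, was dim and measured on 7 of 8 hypothalamus arrays, at least 1.91-fold higher. The paraventricular factor Otp was above background on no array. Nr5a1, which marks the ventromedial nucleus, had -3.11 to -2.43 (median -3.0) in the eye and -4.80 to -4.16 (median -4.42) in the hypothalamus, a difference of 1.62 that ran against the list and was not called.

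Lhx8 and Lhx6 varied between hypothalamus arrays. Lhx8, a factor of forebrain cholinergic neurons, ran from -3.70 on array 2 to 0.27 on array 4 and was above background on no eye array. Lhx6 ran from -2.16 on array 2 to -0.13 on array 1, and its second probe was not called (0.43). Gnrh1, whose neurons lie in the preoptic area in front of the hypothalamus, had its 2 lowest values on arrays 5 and 2. The median SD of the 14 members measured on every hypothalamus array was 0.196, against 0.117 over all probes measured on every hypothalamus array.

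SCN genes separated the tissues less clearly. Of 9 genes, 4 were called higher in the hypothalamus and 1 in the eye, with a median of -1.74 (6 and 1, with a median of -3.32, relative to the spike-ins). Prok2, an output signal of the SCN, had -3.96 to -2.78 (median -3.04) in the hypothalamus, and 2 of 7 eye arrays measured it. Grp, made by light-responsive SCN neurons, lay at -2.94 to -2.54 (median -2.77) in the eye and -0.56 to -0.17 (median -0.34) in the hypothalamus, a difference of -2.42, and Rgs16 differed by -2.40. By contrast Vip, the peptide that couples SCN neurons and is also made by retinal amacrine cells, overlapped, at -1.24 to -0.76 (median -1.05) and -1.59 to -0.90 (median -1.12) (adjusted p = 0.146, limma), and its receptor Vipr2 differed by 0.11 on its brightest probe, whereas a second Vipr2 probe, measured on 7 eye and 5 hypothalamus arrays, gave 2.43 and was called higher in the eye. Syt10, a synaptotagmin used to label SCN neurons, was higher in the eye on its brightest probe (3.01 to 3.98 (median 3.50) against -2.92 to -1.44 (median -2.81)), while its other probe gave -2.38 and was called higher in the hypothalamus, so the 2 probes disagree. The block holds much tissue besides the SCN, and its share of the RNA was not measured.

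Genes of neurotransmission, which retina and brain share, ran in both directions. Of 16 genes, 8 were called higher in the hypothalamus and 2, Slc17a7 and Chat, in the eye. Relative to the spike-ins the counts were 13 and 0. Slc17a6, the vesicular glutamate transporter of subcortical neurons, had -0.46 to 0.30 (median 0.12) in the eye and 4.85 to 5.19 (median 4.94) in the hypothalamus (-4.96), whereas Slc17a7, the transporter used by photoreceptors, bipolar cells and cortex, was higher in the eye, at 1.11 to 1.52 (median 1.31) against -1.53 to -0.92 (median -1.22) (2.47). The third transporter, Slc17a8, gave -3.06 on its brightest probe and 2.01 on another, and the probes were called in opposite directions. The GABA-synthesizing enzymes Gad2 and Gad1 differed by -4.18 and -2.12 (a second Gad1 probe gave -1.94 and was not called), and the transporter that loads GABA and glycine into vesicles, Slc32a1, by -1.47. Chat, which makes acetylcholine, was higher in the eye on its brightest probe (2.23), and a second probe was below background throughout.

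Dopamine genes stood out by their spread. Slc6a3, the dopamine transporter, ran from 1.46 to 4.03 over the hypothalamus arrays and from -3.41 to -2.84 over the eye arrays, a difference of -5.97 ± 0.37. Th, the rate-limiting enzyme of dopamine synthesis, had -0.12 to 1.07 (median 0.50) in the hypothalamus and -3.84 to -3.18 (median -3.57) in the eye. On hypothalamus arrays 1, 2, 5 and 8 both genes were lower than on the other 4. Of the general neuronal genes, Snap25 and Syp differed by -1.64 and -1.75, below the threshold. Syt1 and Stmn2 differed by -2.49 and -3.0 and were called higher in the hypothalamus, although another Syt1 probe gave 1.35 and was not called.

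Glial genes were higher in the hypothalamus. Of 15 myelin and oligodendrocyte genes, 13 were called, with a median of -4.15 (-4.88 without eye arrays 1 and 8, 13 called). Olig1, which specifies oligodendrocytes, had -4.99 to -1.21 (median -2.95) in the eye and 3.33 to 3.67 (median 3.53) in the hypothalamus, and Opalin, a myelin membrane protein, differed by -6.65. Mbp, or myelin basic protein, lay at 1.95 to 5.42 (median 3.47) and 6.65 to 7.11 (median 6.83), while 2 other Mbp probes gave -4.87 and 0.40. Mal was measured on every array and overlapped between the tissues (0.039). Gpr17, a receptor of oligodendrocyte precursors and among the 10 largest hypothalamus differences, was at -5.10 to -0.95 (median -3.05) in the eye and 4.03 to 4.36 (median 4.15) in the hypothalamus, although a second probe near background differed by -0.36.

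Among astrocyte genes 6 of 10 were called higher in the hypothalamus, with a median of -2.09 (9 and -3.67 relative to the spike-ins). Agt, or angiotensinogen, which hypothalamic astrocytes make, differed most, at -0.68 to 0.86 (median -0.38) and 4.78 to 5.12 (median 4.99). Aqp4, the water channel of astrocyte endfeet and of Müller glia, differed by -2.78. Slc1a2, the main glutamate transporter of astrocytes, differed by -3.15 on its brightest probe, and its 4 other probes ranged from -4.75 to 2.65. Gfap, the intermediate filament of astrocytes, was not called at -1.75, and was called (-2.17) without eye arrays 1 and 8. Those arrays also had the highest mean levels of the astrocyte list in the eye (1.26 and 1.15). Leaving them out moves such genes toward the hypothalamus by selection, so nothing is drawn from that call. Gja1, which cornea, lens epithelium and astrocytes all use, was not called (0.25).

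**Figure D3:**
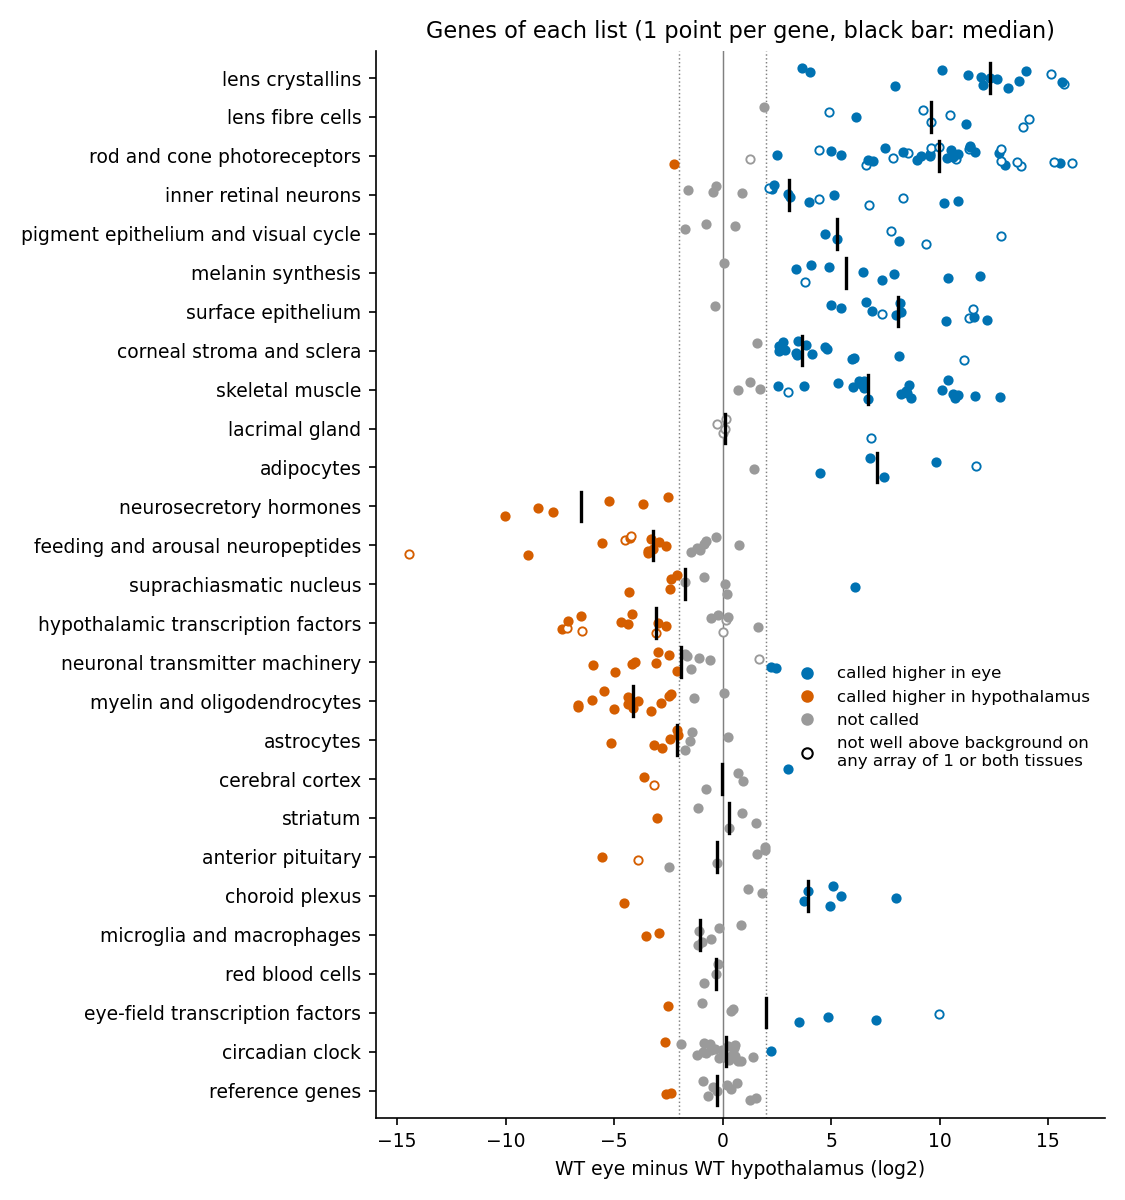
WT eye minus WT hypothalamus difference (log2, horizontal axis) of each gene on 27 lists of cell types and gene groups, with 1 point per gene, blue where called higher in the eye, orange where called higher in the hypothalamus and gray where not called. Open points were above background on no array of at least 1 tissue, black bars are list medians, and dotted lines mark 4-fold. Lens crystallins (median 12.33) and photoreceptor genes (9.96) lie farthest to the right and neurosecretory hormones (-6.54) farthest to the left, while clock genes (0.15) center on 0.

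Microglia and blood were compared as cells that both tissues hold. Of 8 microglia and macrophage genes, P2ry12 and Cx3cr1, receptors of resting microglia, were called higher in the hypothalamus at -3.52 and -2.94, though a second Cx3cr1 probe gave -0.39 and was not called. Relative to the spike-ins 6 of the 8 were called. The colony-stimulating factor receptor Csf1r differed by -1.15, the complement gene C1qa by -0.54, and Aif1, or IBA1, by -0.97, none of them 4-fold. None of the red cell genes Hba-a1, Hbb-bt and Alas2 was called. Their ranges overlapped, and Hba-a1 lay at 3.56 to 4.78 (median 4.10) in the eye and 4.54 to 5.33 (median 5.01) in the hypothalamus.

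The remaining largest hypothalamus differences were in genes outside the lists. Measured in both tissues were Itih3 (-7.78), an inter-alpha-trypsin inhibitor chain, Ntsr2 (-7.24), a neurotensin receptor of astrocytes, Efcab10 (-6.65), Baalc (-6.44), Pnoc (-6.44), the nociceptin precursor, and Htr2c (-6.32), a serotonin receptor that acts on appetite. Htr2c lay at -5.31 to -4.71 (median -5.11) in the eye and 1.04 to 1.38 (median 1.23) in the hypothalamus, though of 2 other Htr2c probes 1 differed by -1.37 and the other was below background. Detected in the hypothalamus alone were the receptors Npy2r, Oprk1 and Htr7, for neuropeptide Y, dynorphin and serotonin, at least 60.4-fold, 46.3-fold and 44.6-fold higher. Lhx5, a factor of the developing forebrain, was at least 101-fold higher and Arhgap36 at least 48.4-fold. Cfap161, a gene of motile cilia, was at least 56-fold higher, and Tmem212 and Fam216b at least 173-fold and 43.6-fold.

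Eye and hypothalamus arise from neighboring parts of the anterior neural plate, and the transcription factors of the eye field were compared for that reason. Of 8 genes, 4 were called higher in the eye and 1 in the hypothalamus (3 and 2 relative to the spike-ins). Rax had 2.89 to 3.09 (median 3.0) in the eye and -4.44 to -3.76 (median -4.02) in the hypothalamus, Pax6 differed by 4.86 and Six6 by 3.51. The paralogs Vax2 and Vax1 ran in opposite directions. Vax2 lay at 1.72 to 1.99 (median 1.90) in the eye and was above background on no hypothalamus array, at least 332-fold higher, and Vax1 had -3.71 to -3.23 (median -3.44) in the hypothalamus and -7.29 to -5.10 (median -5.86) in the eye, where 5 of 7 arrays measured it (-2.52). Lhx2, Six3 and Foxd1, at 0.49, 0.40 and -0.97, were measured on every array of both tissues and not called, and a second Foxd1 probe gave 0.096. The differences of Lhx2 and Six3 are smaller than the spike-in shift of 1.58.

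Few clock genes were called on their brightest probes. Of 24 genes, 1 was called higher in the eye and 1 in the hypothalamus, against 13.4% and 7.39% of all genes. Other probes were called higher in the hypothalamus for Clock, Rora and Bhlhe41, and higher in the eye for Nr1d1 and Rorb. The median difference of the list was 0.15, near the 0.14 over all genes. It was -0.026 after quantile normalization and -1.43 relative to the spike-ins, where 8 genes were called higher in the hypothalamus and 0 in the eye, so the direction of most clock genes was not fixed by these data. Each of the 24 was above background on every hypothalamus array, and all but Npas2 on every eye array.

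Among the repressors, Per1 had 1.08 to 1.39 (median 1.29) in the eye and 0.29 to 0.54 (median 0.40) in the hypothalamus, and Per2 -1.58 to -0.77 (median -1.24) and -2.09 to -1.78 (median -1.90). Neither pair of ranges overlapped, but the differences of 0.86 ± 0.057 and 0.70 ± 0.096 were under 4-fold and turned to -0.72 and -0.88 relative to the spike-ins. Per3 lay at -3.62 to -2.64 (median -3.30) and -3.82 to -3.32 (median -3.47), which overlap (adjusted p = 0.0755, limma), and its difference of 0.29 turned to -0.12 after quantile normalization and -1.29 relative to the spike-ins. The cryptochromes Cry1 and Cry2 overlapped too, at 0.26 and -0.18, with Cry1 at -0.10 after quantile normalization and -1.32 relative to the spike-ins, and a second Cry2 probe at 0.45.

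Of the activators, Clock had 1.07 to 1.53 (median 1.27) in the eye and -0.22 to 0.05 (median -0.11) in the hypothalamus, a difference of 1.38 on its brightest probe, but -0.21 relative to the spike-ins, and its 3 other probes gave 1.40, -0.75 and -2.13. Arntl, its partner, differed by 0.55 (-1.03 relative to the spike-ins). Npas2, which can replace CLOCK in the forebrain, was measured on 4 of 7 eye arrays and differed by -1.16.

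Nuclear receptors form the second loop, in which the REV-ERB repressors Nr1d1 and Nr1d2 oppose the ROR activators at Arntl. Nr1d1 overlapped fully, at -1.0 to -0.58 (median -0.83) and -1.05 to -0.63 (median -0.83), with a difference of 0.061 that turned to -0.015 after quantile normalization and -1.52 relative to the spike-ins, and 2 other probes gave 0.79 and 2.03. Nr1d2 differed by 0.50 and turned to -1.08 relative to the spike-ins. Rora differed by -0.76 on its brightest probe, and another gave -2.56 and was called higher in the hypothalamus. For Rorb, which photoreceptors and the SCN both express, the brightest probe gave -0.93 and 2 others 3.22 and 2.43, so its probes do not share a direction.

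Output and modifier genes completed the list. The D-box factors Dbp, Tef and Hlf differed by -0.035, -0.56 and -0.34, and Dbp turned to 0.14 after quantile normalization. Nfil3, which opposes them, differed by 0.50, the repressors Bhlhe40 and Bhlhe41 by 0.54 and 0.24, and Ciart by 0.57, and all 4 turned negative relative to the spike-ins (-1.08, -1.04, -1.35 and -1.01). A second Nfil3 probe gave -0.029, and a second Bhlhe41 probe gave -2.65 and was called higher in the hypothalamus. The kinases Csnk1d and Csnk1e differed by -0.59 and -1.91, and 2 other Csnk1d probes gave 0.40 and 0.28. Fbxl21, which encodes an F-box protein of a ubiquitin ligase, was the clock gene called higher in the hypothalamus, at -4.53 to -3.85 (median -4.32) in the eye and -1.72 to -1.51 (median -1.61) in the hypothalamus (adjusted p = 1.95e-13, limma).

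**Figure D4:**
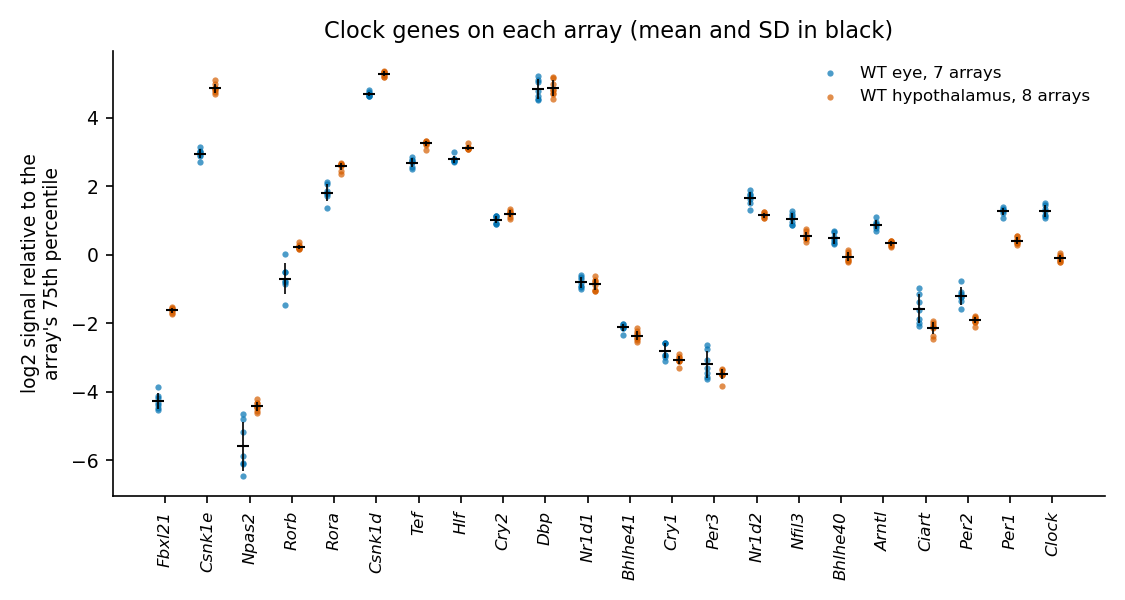
Log2 signal relative to the 75th percentile of the array (vertical axis) of 22 of the 24 clock genes on 7 WT eye (blue) and 8 WT hypothalamus (orange) arrays, 1 point per array with the mean and SD in black, ordered by the eye minus hypothalamus difference from Fbxl21 (-2.65) to Clock (1.38). For 7 genes in the middle of the order, Cry2 to Per3 with Ciart further right, the ranges of both tissues overlap.

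Genes often used as references were not flat between the tissues. Ppia differed by -2.60 (2.67 to 3.41 (median 2.96) in the eye, 5.52 to 5.65 (median 5.56) in the hypothalamus) and Ywhaz by -2.36, and both were called higher in the hypothalamus, although a second Ywhaz probe gave -1.39 and was not called. Actb and Rplp0 were higher in the eye by 1.55 and 1.25, under 4-fold, and turned to -0.030 and -0.34 relative to the spike-ins, and another Rplp0 probe gave 2.04 and was called higher in the eye. Gapdh differed by -0.68, and a second probe by 0.12. The median of the 11 genes was -0.26, with 2 called, and relative to the spike-ins -1.84, with 5 called.

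Genes of neighboring tissues were measured to see what else each dissection held, and choroid plexus genes varied widely between hypothalamus arrays. Of 9 genes, 6 were called higher in the eye and 1, Kl, in the hypothalamus, with a median of 3.93 (2.35 relative to the spike-ins). Ttr, or transthyretin, which both the choroid plexus and the retinal pigment epithelium secrete, lay at 2.43 to 2.69 (median 2.59) in the eye. In the hypothalamus it was at 2.48, 2.31 and 1.24 on arrays 6, 5 and 2, at -1.47 on array 4, and between -6.32 and -5.24 on arrays 1, 3, 7 and 8. The same arrays were high for Kcne2, a potassium channel subunit, at 1.56, 1.37 and 0.56, against -5.48 to -2.16 on the other 5, and all 9 genes were highest on array 6. Over the 9 genes the mean log2 signal ran from -3.28 to 0.58 between hypothalamus arrays and from 1.37 to 1.6 between eye arrays.

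The size of the tissue difference for these genes rests on those arrays. Ttr differed by 4.95 ± 1.4 over all arrays (adjusted p = 0.00495, limma) and by 7.58 without hypothalamus arrays 2, 5 and 6, Kcne2 by 5.44 and 7.59, and Aqp1 by 7.97 and 9.22. Folr1, the folate receptor, differed by 3.77 and 4.72. Without these arrays 7 of 9 genes were called higher in the eye. Kl, or klotho, differed by -4.54, and by -3.58 without them, while a second Kl probe was near background.

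Pituitary genes were high on 1 array. Prl and Gh, the prolactin and growth hormone genes, were at 4.65 and 3.57 on hypothalamus array 5, and at -6.98 to -3.27 and -5.42 to -3.84 on the other 7. Neither was called over all arrays, with Gh at -2.48 (adjusted p = 0.0584, limma) and Prl at -0.25 (adjusted p = 0.884, limma). Gh was called without hypothalamus array 3 (-2.73), and Prl turned to 1.36 without arrays 2, 5 and 6. On array 5, 6 of the 7 pituitary genes were at their highest. Cga and Tshb, the glycoprotein α subunit and the thyrotropin β subunit, both also made in the pars tuberalis at the base of the hypothalamus, were called higher there at -5.54 and at least 4.69-fold, with Cga at -0.72 to 1.54 (median 0.15) over all 8 arrays. Cortical and striatal genes gave 3 calls in the hypothalamus and 1 in the eye of 11, with Tbr1 at least 7.08-fold higher in the hypothalamus and Emx2 at 3.02 toward the eye (1.92 on a second probe, not called). Neurod6 and Emx1, and the striatal genes Drd2 and Adora2a, were not called (-0.77, 0.95, 0.29 and 1.51), and the last 3 turned negative relative to the spike-ins (-0.63, -1.29 and -0.068). A second Adora2a probe gave -1.19.

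In the eye the comparable variation was in myelin, fat and muscle genes. Mbp ranged from 1.95 on eye array 5 to 5.42 on array 1, and Mobp from -2.02 on array 4 to 1.6 on array 1. Of the 15 myelin genes, 13 were highest on array 1 and the other 2 on array 8. The median SD of those measured on every eye array was 1.18, against 0.180 over all probes measured on every eye array and 0.162 for the list in the hypothalamus. All 6 fat cell genes were highest on eye array 6 and lowest on array 4, where Adipoq, or adiponectin, was at -1.61 against 2.20 on array 6. Of 25 muscle genes, 19 were lowest on array 4 and 14 highest on array 6. Crystallins ran the other way, with 12 of 15 highest on array 4 and 12 of 15 lowest on array 6. How much optic nerve, fat or muscle stayed on each eye was not measured, and its part in these values was not tested.

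**Figure D5:**
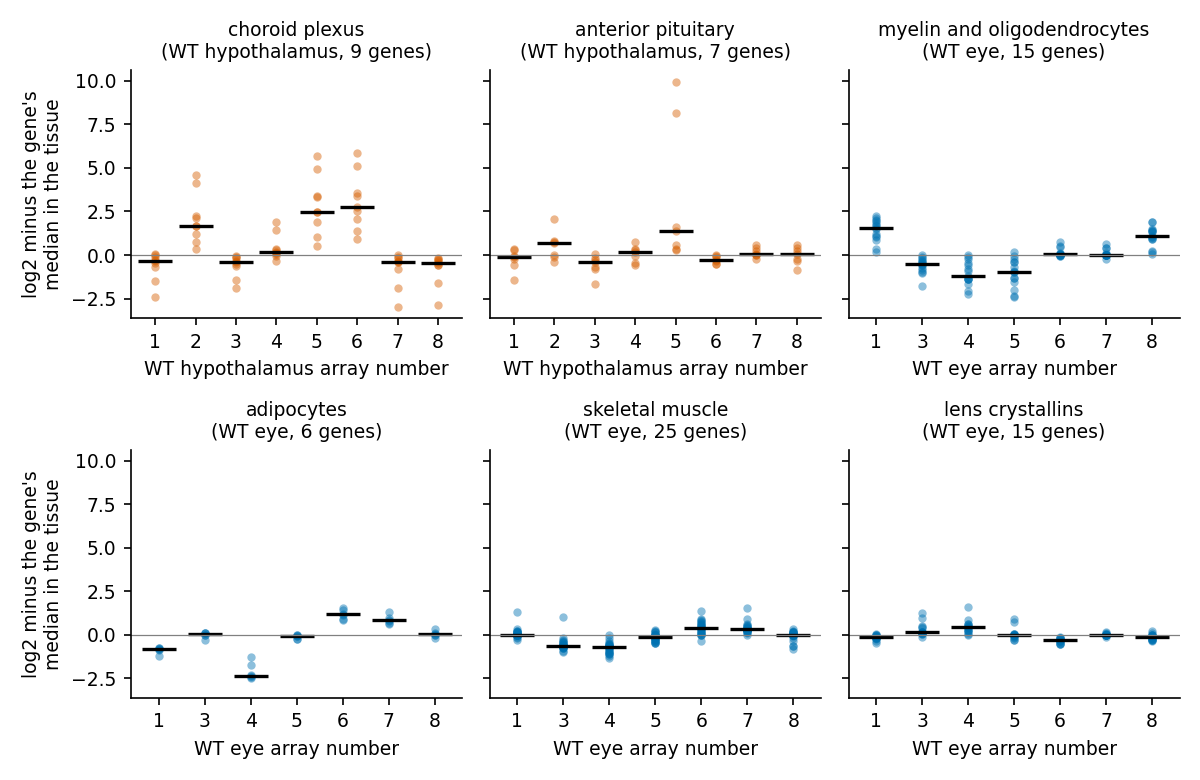
Log2 signal minus the median of the gene over the arrays of the tissue (vertical axis) by array number (horizontal axis) for 6 gene lists, choroid plexus and anterior pituitary on WT hypothalamus arrays (orange) and myelin, fat cell, muscle and lens crystallin genes on WT eye arrays (blue), with 1 point per gene and the list median in black. Choroid plexus genes stand high on hypothalamus arrays 2, 5 and 6, Prl and Gh on array 5, myelin genes on eye arrays 1 and 8, and fat cell genes run from array 4 (low) to array 6 (high).

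The tissue comparison was repeated in the Per3-/- mice, which the values above did not use. Within a tissue, both genotypes shared slides and scanning, so this repeat cannot tell tissue from hybridization either. There 4862 probes (11.8%) were called toward the eye and 3223 (7.83%) toward the hypothalamus. Of the WT calls, 4533 of 4915 and 3059 of 3270 were called the same way, and 0 of 8185 had the opposite sign. Per list, the counts of called genes were those of the WT mice for all 27 lists. Cryaa differed by 13.21 and Krt12 by 10.28, Avp by -10.10, Oxt by -7.67 and Hcrt by -8.82. Per3 itself lay at -4.20 to -2.97 (median -3.81) in the Per3-/- eye and -4.24 to -3.61 (median -4.02) in the Per3-/- hypothalamus. Both ranges overlap those of the WT arrays, although both medians were lower than in WT. In the hypothalamus the overlap rests on WT array 7 at -3.82, with the next WT array at -3.50. The paper reports reduced Per3 expression in the Per3-/- hypothalamus. Whether the Per3 probe lies in the replaced part was not checked here. Detection in 1 tissue alone was shared less often, by 527 of 942 probes for the eye and 310 of 391 for the hypothalamus.

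The variable genes varied in these mice too. Ttr ran over -5.75 to 3.0 (median -1.22) on the Per3-/- hypothalamus arrays and Kcne2 over -5.18 to 1.93 (median -1.79), and Prl and Gh reached 8.13 and 8.19 on their highest array. Pomc, named above with the feeding peptides, ran over 1.68 to 8.64 (median 2.6) on the same arrays, and the source of this spread was not tested. On the Per3-/- eye arrays Mbp ran over 0.85 to 4.76 (median 2.83) and Adipoq over -1.74 to 2.55 (median 1.33). When the tissue difference itself was compared between the genotypes over all 30 arrays, 2 of 41174 probes, those of Prdm16 and Espn, differed at an adjusted p under 0.05 in limma, and 788 at an unadjusted p under 0.05.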

How the data were processed

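Whole eye and hypothalamic block RNA of WT and Per3-/- mice was measured on Agilent 1-color whole mouse genome arrays, 1 array per mouse and tissue. The authors deposited scanner output of Agilent Feature Extraction, and the values used are the background-subtracted and detrended spot intensity of each array, which the authors had not normalized between arrays in these files. The authors' separate table of log2 values, centered on the median of each probe within a tissue, holds no tissue difference and was not used. Eye files carry no gene names, so probes were named through the hypothalamus files of the same array design, whose positions are on mm9.

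Control spots and outlier-flagged spots were left out, spots of a probe were averaged, and log2 intensity minus the array's 75th percentile was analyzed for 41174 probes. WT eye (7) and WT hypothalamus (8) arrays were fitted with limma 3.58.1 (R 4.3.3, lmFit and eBayes, two-sided, unpaired), with Benjamini-Hochberg adjustment over all probes. A call required an adjusted p under 0.05 and a difference of at least 4-fold. Detection in 1 tissue alone required a probe to be well above background by the scanner software on every array of it and on none of the other, with no test. The number of arrays limits the precision. A gene is represented by its probe of highest mean over the WT arrays, and another probe of a named gene is given where it differed in call or direction and was above background on any WT array. Tables and figures were made with Python 3.11.15, numpy 2.4.6, pandas 2.3.3 and matplotlib 3.10.9. The fit was tested on simulated data.

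The comparison, the gene lists and the motifs were chosen with earlier results of these data known. The genes to be named were the 5 markers, the 10 largest differences in each direction among called genes measured on every array of both tissues, the 10 largest bounds in each direction, the first 3 genes of each list with its 2 largest differences and any member called against the list, and every clock gene. Probes with clone names were passed over for the largest differences and bounds. Some genes this rule takes, clock genes among them, are counted in their lists but not reported here by name. Other genes named in the text were chosen after their values were seen. Promoter windows are from RefSeq (GRCm38.p6) and were joined by gene symbol, and no mm9 position was converted. Alternatives were quantile normalization, centering on probes above background on all WT arrays, normexp background correction with an offset of 50, a filter on dim probes, slide and mouse as blocks, other fold thresholds and detection rules, the methods' t-test, the Per3-/- arrays and each array left out. Centering on spike-ins and leaving out hypothalamus arrays 2, 5 and 6 or eye arrays 1 and 8 were chosen after seeing the data.

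The replicate numbers in the labels are shared between the tissues, but nothing states that a number marks 1 mouse. The paper describes brain and whole eye as collected from the same group of mice. Over the 7 numbers present in both tissues, deviations from the tissue means correlated between -0.12 and 0.19, and 3 of 7 eye arrays matched their own number best. These values do not settle whether the arrays are pairs. The main fit was unpaired because the methods of the study give no design for comparing tissues, and the number as a block was an alternative.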

Additional observations from a re-analysis of the deposited data

Results flagged for a closer look

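Within a tissue, the array farthest from the others was tested for the named genes, over 253 groups of 7 or 8 arrays, and 12 groups (11 genes) held an array whose gap to its neighbor was large against the whole range of the group. Chance flags about 1 in 20 groups, so this number is close to what chance gives. The hypothalamus arrays concerned were array 5 for Gh (3.57, with the next array at -3.84), array 6 for Dct (-2.58) and Gfap (2.10), array 2 for Prok2 (-3.96), array 8 for Csf1r (0.72) and Crygd (-3.74), array 7 for Per3 (-3.82), and array 1 for Emx1 (-3.57), Tef (3.06) and Hlf (3.27). In the eye they were array 3 for Hlf (3.01) and array 5 for Bhlhe41 (-2.33). Apart from Gh, the groups spanned at most 1.19 log2.

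For 2 genes the tissue difference itself differed between the genotypes in limma over all 30 arrays. Prdm16, a transcriptional regulator of brown fat and of the developing brain, differed by 0.91 in WT and -0.37 in Per3-/- mice, a gap of 1.28 (adjusted p = 0.00319). Its signal was lower in Per3-/- mice in both tissues, with ranges apart. The medians were 1.324 in WT and -2.755 in Per3-/- eye, and 0.326 and -2.462 in the hypothalamus. Espn, an actin-bundling protein, differed by 2.76 in WT and 1.73 in Per3-/- mice, a gap of 1.02 (adjusted p = 0.0127).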

How the results depend on the processing

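Counts of called probes (4915 eye, 3270 hypothalamus) stayed within 1.5 times under quantile normalization, shared-probe centering, the filter on dim probes, slide as a block and the methods' t-test (4914 and 3270). They were 2241 and 1949 with normexp (2485 and 1702 in the Per3-/- arrays), 1623 and 12689 relative to the spike-ins, 10590 and 7721 at 2-fold, and 2288 and 1309 at 8-fold. Leaving out 1 array gave 4654 to 5256 and 3222 to 3314. Detection in 1 tissue alone (942 and 391) came to 1584 and 666 with 1 exception allowed per tissue, 233 and 115 when any significant signal over background counted, and 944 to 1079 and 391 to 468 without 1 array. By their rules, call counts cannot fall at 2-fold or rise at 8-fold, and detection counts cannot fall with 1 exception allowed or without 1 array. Centering on the spike-ins shifts every difference, as given above. Why the other counts moved was not tested.

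With the replicate number as a block, over the 7 numbers shared by both tissues, the counts were 4864 and 3311, and the block changed no call among the 158 named genes.

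Directions turned relative to the spike-ins for Lep (-0.14), Vip (-1.39), Emx1 (-0.63), Drd2 (-1.29), Adora2a (-0.068), Per1 (-0.72), Per2 (-0.88), Per3 (-1.29), Cry1 (-1.32), Clock (-0.21), Arntl (-1.03), Nr1d1 (-1.52), Nr1d2 (-1.08), Nfil3 (-1.08), Bhlhe40 (-1.04), Bhlhe41 (-1.35), Ciart (-1.01), Rplp0 (-0.34) and Actb (-0.030), and for the medians of the striatum (-1.29) and clock (-1.43) lists. Under quantile normalization they turned for Per3 (-0.12), Cry1 (-0.10), Nr1d1 (-0.015), Dbp (0.14), Bhlhe41 (-0.0059) and the clock median (-0.026), and with normexp for the cortex median (0.064). Among the 158 genes the rule names, other probes of the same gene pointed the other way for Syt10 (-2.38), Gad1 (0.19), Chat (-0.64), Mbp (0.40), Slc1a2 (2.65), Adora2a (-1.19), Kl (0.30), Cry2 (0.45), Clock (-2.13 and -0.75), Rorb (3.22 and 2.43), Nfil3 (-0.029), Bhlhe41 (-2.65), Csnk1d (0.40 and 0.28) and Gapdh (0.12). Prl turned without hypothalamus arrays 2, 5 and 6 (1.36). Of these genes, 8 calls were lost with normexp and 2 with quantile normalization. Probes near background have only bounds, and small differences were not resolved between tissues that were hybridized separately.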
